A study of Mus musculus with 6 samples.

Results

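The WNT ligands, their Frizzled and Lrp receptors and their secreted inhibitors were measured by bulk RNA sequencing in mouse embryonic fibroblasts (MEFs). There were 3 libraries titled WT and 3 titled KO. The latter are written below as labelled GαqKO, after the name that the study gives to the line. The members were set by a rule on symbols, as protein-coding genes named Wnt, Fzd, Sfrp, Dkk or Rspo with a number, together with Lrp5, Lrp6 and Wif1. They are 44 of the 56953 genes in the table, and earlier results of these data were known when they were chosen. The study describes the second line as knock-out for both Gαq and Gα11 and names it GαqKO, and both lines came from an outside laboratory and grew in the same serum-containing medium, with no treatment named in the labels. Age, strain, number of embryos and number of clones behind each line are not given in the sources used here, so a difference of genotype and any other difference between these lines cannot be told apart. The 3 libraries of each genotype are described as biological replicates. The p-values set the difference between groups against the spread between these libraries, and not against a spread between separate lines. Values are normalized counts, which are the reads of a gene divided by a size factor of the library.

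WNT proteins are secreted, lipid-bearing ligands that need the acyltransferase Porcn and the carrier Wls to leave the cell. They bind Frizzled receptors, and together with Lrp5 or Lrp6 they stop the destruction of β-catenin, which then acts with Tcf and Lef factors on target genes, while other ligand and receptor pairs act on cell shape and planar polarity without β-catenin. Sfrp proteins and Wif1 hold WNTs in the medium, and Dickkopf proteins such as Dkk1 block Lrp5 and Lrp6. R-spondins raise the signal by protecting Frizzled from removal at the cell surface. Embryonic mesenchyme, from which such fibroblasts come, is both a source and a target of these signals during the patterning of limb, face and skin.

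Each library held from 11392429 to 11483486 normalized counts in all. The reads recovered from the values ran from 9853000 to 12229175 in the 5 libraries for which they were used, which leave out GαqKO replicate 3. Gnaq, the gene of Gαq, had 1666, 1660.2 and 1747 normalized counts in the WT libraries and 1959.7, 1931 and 1888 in those labelled GαqKO. Its transcript was not lower but higher there (log2 fold change 0.19, adjusted p = 0.00212 from limma). Gna11, the gene of Gα11, had 2141, 2179.9 and 2123 in WT and 472, 464 and 419 in the others. Counts over a whole gene cannot tell an intact transcript from a truncated one. The paper reports a lack of Gαq protein in its GαqKO MEFs, by Western blot and immunofluorescence. RNA counts do not measure that protein, and the groups keep the names given above. All 10 fibroblast markers passed the filter, and in the libraries labelled GαqKO 5 were higher and 5 lower. They summed to 88575 to 94408 normalized counts per WT library and to 75716 to 78761 per library labelled GαqKO. Lower were Col1a1 (log2 fold change -1.53), Fn1 (-0.73), Col1a2 (-0.36), Vim (-0.32) and Col3a1 (-0.18), and higher were Pdgfra, Thy1, Prrx1, Twist1 and Pdgfrb. The WT libraries had 2.1, 0 and 0 normalized counts of Thy1 and 21.9, 17.5 and 19.3 of Pdgfra, against 59.2, 59.0 and 76.5 and 2329, 2356 and 2274. The 6 epithelial markers summed to 515.1 to 540.8 normalized counts per WT library and to 10.0 to 23.2 per library labelled GαqKO, and the WT sum came mostly from Cdh1 and Krt14, with Epcam at 8.1 or less and Krt5 at 1.0 or less in every library. The part of these marker differences in the results was not tested. The endothelial, haematopoietic, muscle and neural lists summed to at most 115.0 normalized counts in any library. In such bulk libraries, fewer cells of a type and less RNA per cell cannot be told apart.

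In the libraries labelled GαqKO the WNT genes changed in both directions. Wnt10b, the most abundant ligand transcript in WT, rose further, while Wnt11, Wnt4, Wnt7b, Wnt9a and Wnt5a fell to near 0. Of the receptors, Fzd3, Fzd4, Fzd6 and Fzd9 fell past the fold threshold used here (a log2 fold change of 1 in size), and Fzd1, Fzd5, Fzd7 and Fzd8 rose by less than that. The inhibitor Sfrp4 fell to near 0, while the inhibitor Dkk2 and the agonist Rspo2 rose from near 0. Of the 44 members, 25 reached 10 normalized counts in 3 or more libraries and were tested with limma on log2(normalized count + 1), with Benjamini-Hochberg adjustment over all 14096 genes that passed the same filter. Fold changes on this scale understate the change of genes with low counts.

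An adjusted p under 0.05 was reached by 24 of the 25 tested members, against 65.8% of all genes tested. Of these, 10 were higher in the libraries labelled GαqKO, a call made for 31.8% of all genes tested, and 14 were lower, a call made for 34.1%. With a log2 fold change past 1 in size as well, 4 members were higher and 12 lower, against 10.2% and 10.5% of all genes tested. The groups did not overlap for 23 of the 25, against 69.6% of all genes tested. The median log2 fold change was -0.93 over the tested members and -0.01 over all genes tested, and the median absolute log2 fold change was 2.25 and 0.39. These are descriptions, since 11 of the 25 members reached 10 normalized counts in every library of 1 group only, 9 in WT and 2 in GαqKO, and such genes could hardly pass the filter without differing. The 9 were Wnt1, Wnt4, Wnt5a, Wnt7b, Wnt9a, Wnt11, Fzd4, Fzd9 and Sfrp4, and the 2 were Dkk2 and Rspo2. The same limit holds for the p-values of these genes below. When every library had to reach 10 normalized counts, 13 members were tested, of which 8 were higher and 5 lower, against 32.7% and 34.2% of the 12054 genes then tested. The other 19 members had no value over 9.7 normalized counts in any library, and 3 of them, Dkk1, Fzd10 and Wnt9b, were listed at 0 throughout.

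**Figure D1:**
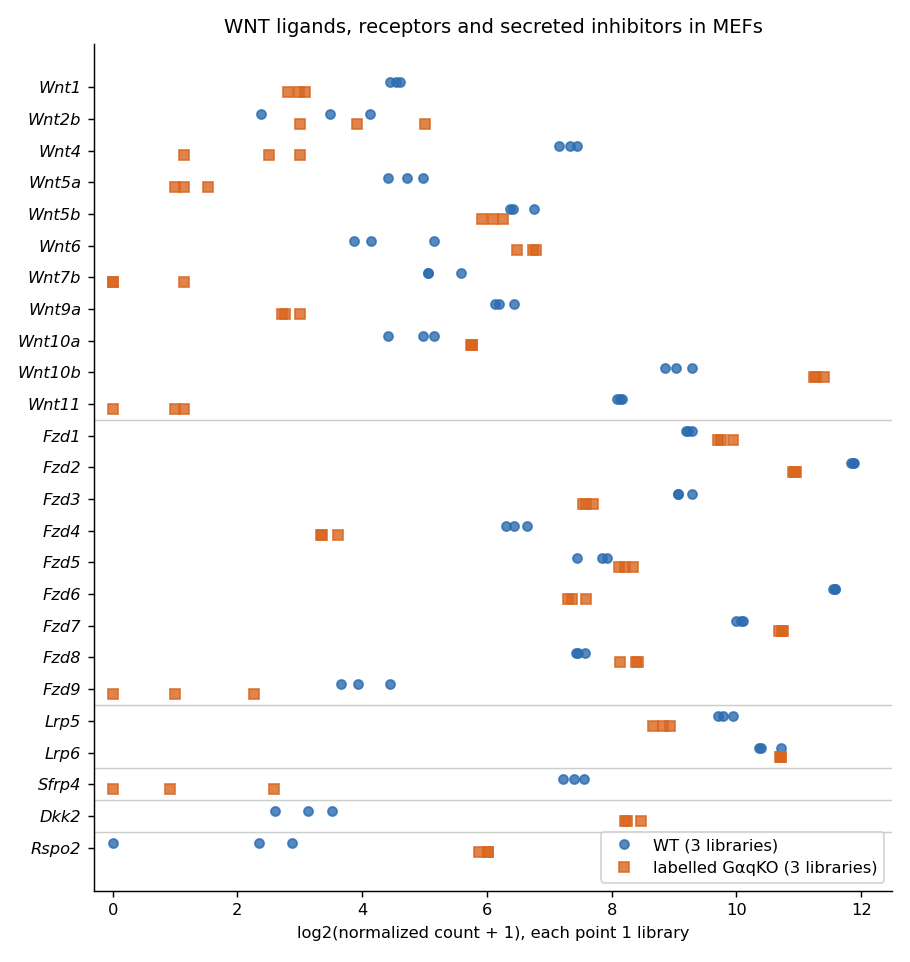
Normalized counts of the 25 tested members, as log2(normalized count + 1) on the horizontal axis, with 1 point per library (circles WT, squares labelled GαqKO) and lines between classes. The points of the 2 groups lie apart for 23 members, and overlap for Wnt2b and Lrp6.

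Among the 19 WNT ligands, 11 were tested, and the commonest of them in both groups was Wnt10b, a ligand known for holding back fat cell formation and favouring bone. Wnt10b (chromosome 15, 98668593 to 98690045 of GRCm39) had 621, 523 and 464 normalized counts in WT and 2422, 2466 and 2719 in those labelled GαqKO. The groups lay far apart, with a log2 fold change of 2.25 (standard error, SE, 0.086, adjusted p = 4.71e-11 from limma). Wnt6, a ligand of the surface ectoderm, had 16.7, 13.6 and 34.6 normalized counts in WT and 109, 87.9 and 106 in those labelled GαqKO. The groups lay apart although the WT values spread widely, and the log2 fold change of Wnt6 was 2.27 (SE 0.29, adjusted p = 1.15e-05 from limma). Wnt10a, a ligand of tooth and hair development, had 28.4 ± 7.28 normalized counts in WT and 53.0 ± 0.596 in those labelled GαqKO (SD, n = 3 each). It rose by a log2 fold change of 0.91 (adjusted p = 0.00416 from limma). DESeq2 on the reads of 5 libraries gave Wnt10a an adjusted p of 0.0707.

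The ligand with the most negative fitted change was Wnt11 (chromosome 7, 98484319 to 98504402), which is known for β-catenin-independent signals in cell movement. It had 286, 271 and 279.9 normalized counts in WT and 0, 1.2 and 1.0 in those labelled GαqKO. The totals over each group stood in a ratio of 418-fold with an exact 95% interval from 115 to 3461, which covers counting error only, and the adjusted p was 2.06e-10 (limma). Wnt4 (chromosome 4, 137004373 to 137027037), needed for kidney tubules and the female reproductive tract, had 141, 173 and 161 normalized counts in WT and 4.7, 1.2 and 7.0 in those labelled GαqKO. The groups lay far apart for Wnt4 as well, with a log2 fold change of -5.10 (SE 0.40, adjusted p = 7.41e-08 from limma). Wnt9a, a ligand of joint-forming tissue, had 72.0, 69.0 and 85.5 normalized counts in WT and 5.6, 5.8 and 7.0 in those labelled GαqKO. All 3 of the latter values lay below 10, with a log2 fold change of -3.42 (SE 0.27, adjusted p = 7.16e-08 from limma). Wnt11, Wnt4 and Wnt9a passed the filter through WT. Of the 6 epithelial markers, Cdh1 and Krt14 were high in the same WT libraries as these ligands. Krt14 had 261, 254 and 259.6 normalized counts in WT and 0, 2.3 and 1.0 in those labelled GαqKO. Krt8 and Krt18 were also higher in each WT library, at 30.1 normalized counts or less. Epcam did not follow, at 5.2 or less in WT and up to 8.1 in those labelled GαqKO, and Krt5 had at most 1.0. Any gene higher in WT shares this pattern, and the part of these markers in the differences was not tested.

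The remaining ligands were scarcer, and of these Wnt7b, Wnt5a and Wnt1 passed the filter through WT. Wnt7b, a ligand of lung and kidney development, had 32.4, 32.1 and 46.8 normalized counts in WT and 0, 1.2 and 0 in those labelled GαqKO, a ratio of group totals of 111-fold with an exact 95% interval from 19.5 to 4423. Wnt5a, the ligand most often tied to Ror receptors and planar polarity, had 30.3, 20.4 and 25.4 normalized counts in WT and 1.9, 1.2 and 1.0 in those labelled GαqKO. It was thus present at a low level in WT and at no more than 1.9 normalized counts in the other group, with a log2 fold change of -3.49 (SE 0.42, adjusted p = 5.73e-06 from limma). Its paralog Wnt5b had 84.6, 107 and 81.4 normalized counts in WT and 75.1, 67.1 and 59.4 in those labelled GαqKO. The groups did not overlap, but the log2 fold change of -0.43 (adjusted p = 0.0426 from limma) was not called in 8 of 16 other settings, among them edgeR and DESeq2 and the fits without WT replicate 1, WT replicate 2, GαqKO replicate 2 or GαqKO replicate 3. Wnt1, known from the midbrain and the neural crest, had 20.9, 22.3 and 23.4 normalized counts in WT and 7.5, 6.9 and 6.0 in those labelled GαqKO. Its log2 fold change was -1.57 (SE 0.32, adjusted p = 0.000757 from limma), and 40.2% of its exon length lies inside the span of Wnt10b, so that reads of these genes may not be fully separated. Wnt2b could not be told apart between the groups, at 10.3 ± 6.17 and 17.5 ± 12.4 normalized counts (SD, n = 3 each), with a 95% interval of the log2 fold change from -0.51 to 1.81. The other 8 ligands, Wnt2, Wnt3, Wnt3a, Wnt7a, Wnt8a, Wnt8b, Wnt9b and Wnt16, had at most 6.3 normalized counts in any library.

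**Figure D2:**
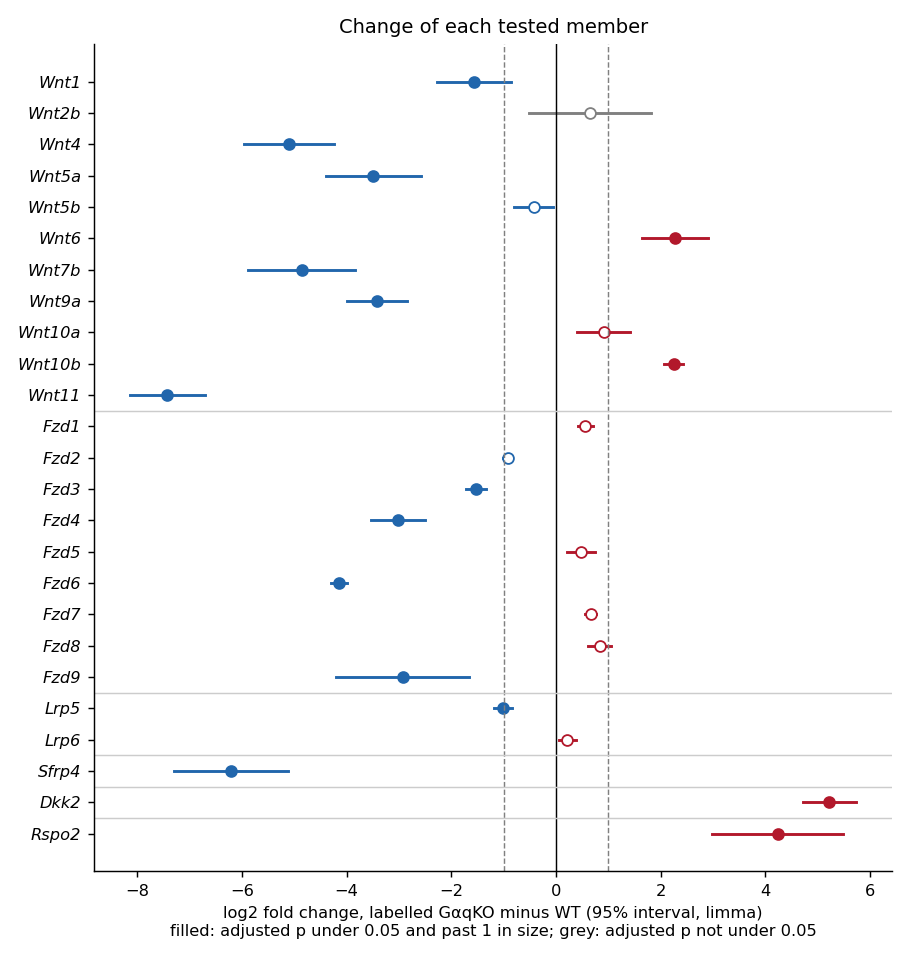
Log2 fold change of each tested member (labelled GαqKO minus WT, horizontal axis) with its 95% interval from limma. Filled points are past an adjusted p of 0.05 and a log2 fold change of 1 in size, 4 of them to the right and 12 to the left.

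To compare genes of one class, normalized counts were divided by the length of the Ensembl canonical transcript in kb. On this per-kb scale the 19 ligands summed to 371 ± 13.4 in WT and 785 ± 39.8 in the libraries labelled GαqKO (SD, n = 3 each). Wnt10b made up 39.1% ± 4.38 of that sum in WT and 87.6% ± 1.14 in the libraries labelled GαqKO (SD, n = 3 each). Wnt11 was second in WT with 23.2% ± 0.632, followed by Wnt5b with 9.67% ± 1.59 and Wnt4 with 9.25% ± 1.21. Wnt5b and Wnt4 did not differ beyond their spread, and Wnt4 came first of them with merged exon lengths. In the libraries labelled GαqKO, Wnt6 came second with 4.77% ± 0.53, ahead of Wnt5b with 3.39% ± 0.542 and Wnt10a with 2.74% ± 0.164. The order of Wnt5b and Wnt10a in that group also depends on the length, since with merged exon lengths Wnt10a held 2.2% ± 0.134 and Wnt5b 2.08% ± 0.334. The level of Wnt10b per kb was 145 ± 21.6 in WT and 688 ± 43.5 in the libraries labelled GαqKO (SD, n = 3 each), a larger rise than that of the whole ligand sum.

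Promoter sequences of 5 members that fell or rose past the fold threshold are shown, from the fewest to the most CpG among such members. CpG is the dinucleotide at which mammalian DNA is methylated. They were picked after the values were seen, and the matched members Fzd4, Fzd9, Wnt1 and Wnt6 are left out. RefSeq windows of build GRCm38.p6 were given for 28 of the 44 members, and the most upstream window of each gene was used, cut to the 250 bases before the start site. These coordinates are of another build than those of the genes above. Fzd3, Fzd6, Lrp5, Rspo2, Sfrp4, Wnt5a and Wnt7b were not matched. The 6 matched members that were lower past the fold threshold, Fzd4, Fzd9, Wnt1, Wnt4, Wnt9a and Wnt11, had 23 to 48 CpG in the window. The 3 matched members that were higher, Dkk2, Wnt6 and Wnt10b, had 7, 28 and 14. The counts of both directions thus overlapped, as Wnt6 lay above Wnt1 with 23 and Fzd4 with 25. The windows shown do not display this overlap. Over the 9794 genes tested that have a window, the median was 16 with quartiles of 9 and 23, and untested members such as Wnt3a also reached 41. This describes 9 genes, with no test. The windows are written 5′ to 3′ with each CpG in capitals, first Wnt9a, Wnt4 and Wnt11 (48, 44 and 37 CpG), which fell, and then Wnt10b and Dkk2 (14 and 7 CpG), which rose.
Wnt9a, chr11:59306680-59306929, + strand: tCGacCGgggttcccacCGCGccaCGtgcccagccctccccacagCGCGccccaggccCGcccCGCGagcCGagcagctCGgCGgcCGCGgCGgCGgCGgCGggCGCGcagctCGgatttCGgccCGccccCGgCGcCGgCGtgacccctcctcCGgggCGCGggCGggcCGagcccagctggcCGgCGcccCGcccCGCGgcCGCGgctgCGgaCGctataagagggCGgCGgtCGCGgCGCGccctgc
Wnt4, chr4:137277385-137277634, + strand: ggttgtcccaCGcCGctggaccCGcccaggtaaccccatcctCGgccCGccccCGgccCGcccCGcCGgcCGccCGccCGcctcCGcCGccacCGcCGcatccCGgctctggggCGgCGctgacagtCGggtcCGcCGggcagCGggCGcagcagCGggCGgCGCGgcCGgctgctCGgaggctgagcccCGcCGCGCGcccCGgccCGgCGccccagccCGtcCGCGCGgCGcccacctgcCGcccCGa
Wnt11, chr7:98834862-98835111, + strand: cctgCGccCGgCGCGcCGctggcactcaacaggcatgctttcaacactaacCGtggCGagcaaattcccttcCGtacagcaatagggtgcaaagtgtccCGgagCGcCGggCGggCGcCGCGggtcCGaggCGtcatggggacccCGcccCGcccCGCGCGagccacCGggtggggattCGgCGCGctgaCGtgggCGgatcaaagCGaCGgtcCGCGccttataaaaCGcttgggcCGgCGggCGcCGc
Wnt10b, chr15:98778151-98778400, - strand: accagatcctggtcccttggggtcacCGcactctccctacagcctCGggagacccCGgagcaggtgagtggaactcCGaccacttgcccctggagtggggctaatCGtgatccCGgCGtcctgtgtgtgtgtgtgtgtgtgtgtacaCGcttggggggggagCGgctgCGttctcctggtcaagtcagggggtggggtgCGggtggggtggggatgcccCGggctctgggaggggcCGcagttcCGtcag
Dkk2, chr3:132085042-132085291, + strand: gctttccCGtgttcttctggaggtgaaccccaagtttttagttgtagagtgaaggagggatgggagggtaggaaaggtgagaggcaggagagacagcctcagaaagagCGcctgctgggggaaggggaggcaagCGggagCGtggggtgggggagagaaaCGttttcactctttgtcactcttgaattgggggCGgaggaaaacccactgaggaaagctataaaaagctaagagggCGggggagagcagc
The same windows were searched on both strands for the core of the Tcf/Lef site, as CTTTGAT or CTTTGAA, which differ in their last letter and so cannot match at one place. Of 31 windows of the 28 members (some have several), 3 held a match, in Wnt11 (its complement ATCAAAG, starting 51 bases before the start site), in Dkk1 and in 1 of the windows of Wnt5b, and 7.48% of all 32851 windows held one. In the Wnt11 line above, the match reads atcaaag and lies between CpG dinucleotides. A match is a description of the letters and not of binding.

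Frizzled receptors bind the lipid of WNT proteins, and 9 of the 10 were tested, since Fzd10 was listed at 0 in every library. Fzd6 (chromosome 15, 38869243 to 38901584), best known for the planar polarity of hair follicles, had 2993, 3053 and 3050.5 normalized counts in WT and 191, 164 and 157 in those labelled GαqKO. The replicates of each group lay close together, and the drop was a log2 fold change of -4.15 (SE 0.071, adjusted p = 1.97e-14 from limma). Its exons lie wholly inside the spans of the genes Gm26704 and Gm33123 in GENCODE release 39. Of its exon length, 13.3% is shared with exons of other genes, and the strand setting of the counting is not stated. Fzd4 (chromosome 7, 89053563 to 89062342), a receptor of WNTs and of Norrin in vessel growth, had 99.2, 77.7 and 85.5 normalized counts in WT and 11.3, 9.2 and 9.1 in those labelled GαqKO, with a log2 fold change of -3.02 (SE 0.24, adjusted p = 8.63e-08 from limma). It lies wholly inside the span of the non-coding gene AI314278, but shares no exon sequence with it. These values, too, did not overlap. Fzd3, a polarity receptor of growing axons, had 532, 536 and 623 normalized counts in WT and 186, 208 and 191 in those labelled GαqKO, with a log2 fold change of -1.52 (SE 0.089, adjusted p = 3.42e-09 from limma). For Fzd3, 84.5% of the exon length lies inside the spans of non-coding genes. Fzd9 was low in WT, at 20.9, 11.7 and 14.2 normalized counts, and at 3.8, 0 and 1.0 in the libraries labelled GαqKO, where it was called lower (adjusted p = 0.000582 from limma). Fzd3, Fzd4, Fzd6 and Fzd9 were the receptors past the fold threshold, and none of them overlapped between groups. Of these, Fzd4 and Fzd9 passed the filter through WT.

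Fzd2 (chromosome 11, 102495222 to 102498884), the most abundant Frizzled in WT, had 3740.3, 3645 and 3767 normalized counts in WT and 1989.8, 1956 and 1921 in those labelled GαqKO. It was lower in each library but short of the fold threshold, with a log2 fold change of -0.93 (SE 0.041, adjusted p = 1.96e-10 from limma). Fzd7 (chromosome 1, 59521269 to 59534685), a close paralog used by many stem and mesenchymal cells, went the other way, with 1078, 1016 and 1105 normalized counts in WT and 1722, 1646 and 1702 in those labelled GαqKO. The rise of Fzd7 was a log2 fold change of 0.66 (SE 0.05, adjusted p = 5.04e-08 from limma). Fzd1 and Fzd8 also rose, with log2 fold changes of 0.56 and 0.83 (adjusted p = 6.45e-06 and 7.61e-06 from limma). Fzd5 rose by 0.48 on the log2 scale (adjusted p = 0.00347 from limma, but 0.055 in DESeq2 on 5 libraries).

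Per kb of transcript, the Frizzleds summed to 2344 ± 45.3 in WT and 1471 ± 42.0 in the libraries labelled GαqKO (SD, n = 3 each). In WT, Fzd2 held 43.3% ± 0.165, Fzd6 29.9% ± 0.725, Fzd7 15.4% ± 0.366 and Fzd1 6.12% ± 0.101 of the sum, in that order and well apart. In the libraries labelled GαqKO, Fzd7 held 38.8% ± 0.492, Fzd2 36.3% ± 0.8 and Fzd1 14.4% ± 0.853, while Fzd6 held 2.68% ± 0.212. The order of Fzd7 and Fzd2 in that group depends on the length used, since with merged exon lengths Fzd2 held 45.6% ± 0.996 and Fzd7 24.6% ± 0.363. With either length, Fzd6 went from the second place to the sixth, where it did not differ from Fzd5 beyond their spread with the canonical lengths (2.92% ± 0.275).

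**Figure D3:**
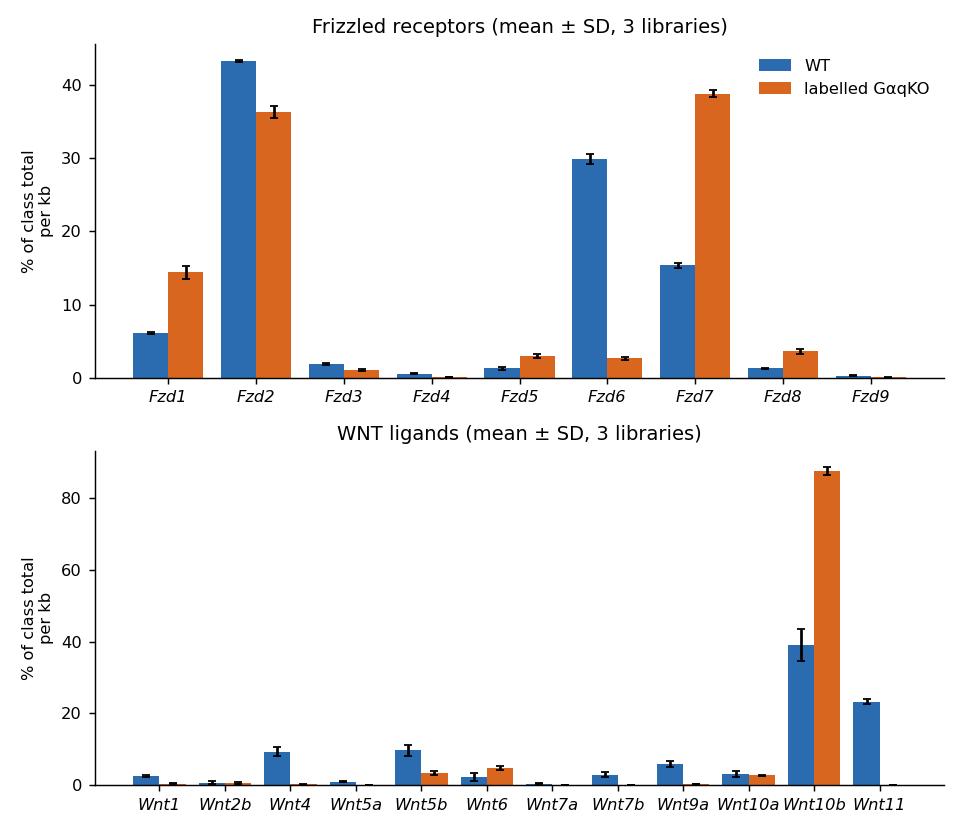
Share of each gene in its class total of normalized counts per kb of canonical transcript, in percent, for Frizzled receptors (top) and WNT ligands with a share over 0.2% in a group (bottom), as the mean of 3 libraries with the SD. Fzd6 and Wnt11 hold 29.9% and 23.2% in WT and 2.68% and 0.028% in the libraries labelled GαqKO.

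The co-receptors Lrp5 and Lrp6, which carry the β-catenin signal together with Frizzled, moved apart. Lrp5 (chromosome 19, 3634821 to 3736643) had 980.5, 834 and 877 normalized counts in WT and 451, 486 and 405 in those labelled GαqKO, with every GαqKO value lower. Its log2 fold change of -1.004 (SE 0.08, adjusted p = 8.8e-08 from limma) sits at the fold threshold and ran from -1.07 to -0.93 over the other settings, of which the fits without WT replicate 1 or GαqKO replicate 3 gave -0.94 and -0.93. Lrp6 had 1316, 1338 and 1674 normalized counts in WT and 1672, 1675 and 1658 in those labelled GαqKO. WT replicate 3 lay among the GαqKO values, and the log2 fold change of 0.22 (95% interval 0.06 to 0.38, adjusted p = 0.0207 from limma) was not called in 7 of 16 other settings, among them the fits without WT replicate 1, WT replicate 2 or any 1 of the GαqKO libraries, and it rose to 0.33 without WT replicate 3. Per kb, the level of Lrp5 was 174 ± 14.6 and that of Lrp6 149 ± 20.7 in WT (SD, n = 3 each), and these ranges of 1 SD overlap. In the libraries labelled GαqKO these levels per kb were 86.5 ± 7.84 and 172 ± 0.965 (SD, n = 3 each), so that Lrp6 was the more abundant.

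Of the secreted inhibitors, 1 Sfrp and 1 Dickkopf gene passed the filter, each through a different group. Sfrp4 (chromosome 13, 19807274 to 19817164), a decoy that shares the WNT-binding domain of Frizzled, had 188, 168 and 148 normalized counts in WT and 0.9, 0 and 5.0 in those labelled GαqKO. The groups did not overlap, and the fit gave a log2 fold change of -6.21 (SE 0.50, adjusted p = 1.08e-07 from limma). The fitted value ran from -8.33 to -4.69 over the other settings, and the GαqKO values behind it are a few reads. Dkk2 (chromosome 3, 131790336 to 131886065), which binds Lrp5 and Lrp6 and can clear them from the surface together with Kremen proteins, had 10.4, 7.8 and 5.1 normalized counts in WT and 352, 295 and 304 in those labelled GαqKO. The order of the groups was the reverse of that of Sfrp4, with a log2 fold change of 5.22 (SE 0.24, adjusted p = 2.51e-10 from limma). Kremen1 had a log2 fold change of -0.38 (adjusted p = 9.75e-05 from limma), and Kremen2 had at most 1.0 normalized counts in any library. Sfrp1, Sfrp2, Sfrp5, Dkk3, Dkk4 and Wif1 had at most 9.4 normalized counts in any library, and Dkk1 was listed at 0. Wif1, which binds WNTs outside the cell, had 2.1, 0 and 0 in WT and 0 in every library labelled GαqKO. The count of Sfrp2 is uncertain, as 95.2% of its exon length is shared with the spans of other genes. Frzb, the fifth gene of the Sfrp family, had 3.1, 0 and 2.0 normalized counts in WT and 0, 5.8 and 0 in those labelled GαqKO.

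Of the 4 R-spondins, Rspo2 passed the filter, through the libraries labelled GαqKO. It had 6.3, 0 and 4.1 normalized counts in WT and 63.9, 63.6 and 57.4 in those labelled GαqKO, which did not overlap, with a log2 fold change of 4.23 (SE 0.58, adjusted p = 2.01e-05 from limma). Of the fibroblast markers, Pdgfra, Thy1, Prrx1, Twist1 and Pdgfrb were higher in the same libraries as Dkk2 and Rspo2 and the other 5 were lower there, and their part was not tested. Rspo1, Rspo3 and Rspo4 had at most 9.7 normalized counts in any library. Of these, Rspo3 had 4.2, 9.7 and 7.1 in WT and 0, 1.2 and 3.0 in those labelled GαqKO, the reverse order to Rspo2, and was not tested. The R-spondin receptors Lgr4 and Lgr6 went the opposite way to Rspo2. Lgr4, the most widely expressed of them, had 722, 725 and 694 normalized counts in WT and 132, 152 and 139 in those labelled GαqKO, with a log2 fold change of -2.33 (SE 0.082, adjusted p = 2.08e-11 from limma). Lgr6 had 179.6, 173 and 219.9 normalized counts in WT and 16.0, 19.7 and 10.1 in those labelled GαqKO, with a log2 fold change of -3.60 (adjusted p = 1.25e-08 from limma), and Lgr5 had at most 4.2 in any library. Of the ubiquitin ligases that R-spondins neutralise, Znrf3 had a log2 fold change of -0.35 (adjusted p = 0.000363 from limma) and Rnf43 was under the filter.

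The other genes of the pathway were taken as 7 lists of 61 genes in all, of which 47 were tested. At an adjusted p under 0.05, 15 of these were higher and 25 were lower (limma), against 31.8% and 34.1% of all genes tested, and 7 were not called. Past the fold threshold 4 were higher and 14 lower, against 10.2% and 10.5%. These are descriptions, since Celsr1, Celsr2, Prickle3 and Apc2 reached 10 normalized counts in every library of WT but not of GαqKO, and Notum the reverse. When every library had to reach 10 normalized counts, 15 were higher and 21 lower, against 32.7% and 34.2% of the 12054 genes then tested. The median log2 fold change of the 47 was -0.30, against -0.01 over all genes tested. Both secretion genes fell. Wls, the carrier that takes WNTs to the cell surface, had 3188, 3286 and 3222 normalized counts in WT and 1359, 1224 and 1287 in those labelled GαqKO, with a log2 fold change of -1.33 (SE 0.048, adjusted p = 2.67e-11 from limma). Porcn, which lies wholly inside the span of a non-coding gene, had a log2 fold change of -0.64 (adjusted p = 0.00028 from limma).

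Among other WNT receptors the Ror kinases, which bind Wnt5a, went opposite ways. Ror1 had 371, 386 and 386 normalized counts in WT and 26.3, 49.7 and 22.2 in those labelled GαqKO, for a log2 fold change of -3.59 (adjusted p = 9.16e-09 from limma). Ror2 had 37.6, 48.6 and 52.9 in WT and 594, 592 and 564 in those labelled GαqKO, for a log2 fold change of 3.64 (adjusted p = 2.72e-11 from limma). Neither gene overlapped between groups. Ryk had a log2 fold change of -0.34 (adjusted p = 0.000228 from limma), and the interval of Ptk7 ran from -0.17 to 0.06. Of the 10 tested planar polarity genes, 5 fell past the threshold, against 14 of the 47 tested pathway genes and 10.5% of all genes tested. Celsr1, Celsr2 and Prickle3 passed the filter through WT. Celsr1, a cadherin of the polarity complex, went from 255 ± 46.8 to 7.96 ± 3.89 normalized counts, and Daam2, which links Dishevelled to actin, from 558 ± 23.9 to 23.5 ± 5.39 (SD, n = 3 each). Prickle3 and Prickle1 fell with them, with log2 fold changes of -4.30 and -2.13, and the group totals of Celsr2 stood in a ratio of 153-fold with an exact 95% interval from 51.9 to 743. Vangl1 and Scrib rose by less than 1, Vangl2 and Daam1 fell by less than 1, and Prickle2 was not called (95% interval -0.16 to 0.05) unless WT replicate 3 was left out.

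**Figure D4:**
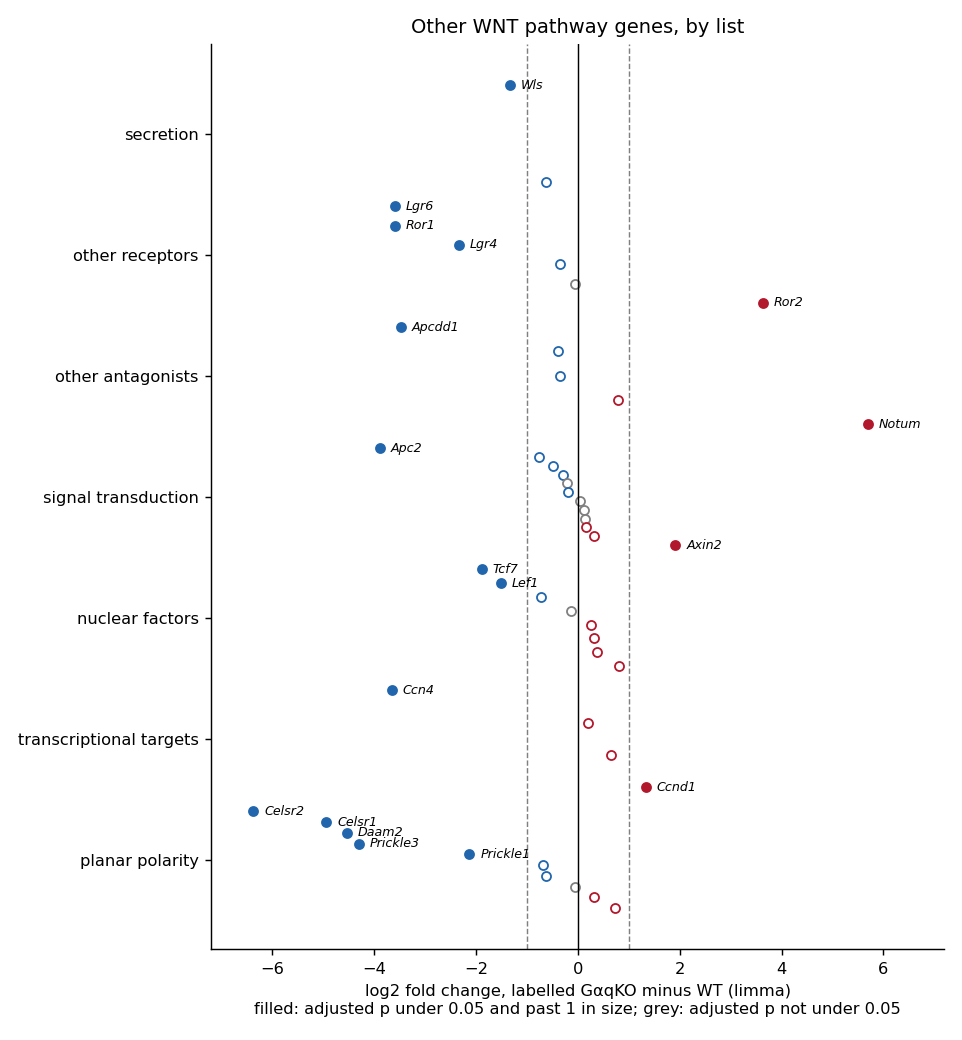
Log2 fold change (labelled GαqKO minus WT, limma) of the 47 tested genes of 7 WNT pathway lists, 1 point per gene. The 4 named points on the right are Ror2, Notum, Axin2 and Ccnd1, and the 14 named points on the left include Wls, Ror1, Lgr4, Apcdd1, Tcf7, Lef1 and Ccn4.

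Of the 6 genes listed as transcriptional targets, 4 were tested, of which Ccnd1, Myc and Ccn5 were higher and Ccn4 was lower. Targets were also held in the other lists. Axin2, the most used readout of the β-catenin pathway, had 21.9, 14.6 and 13.2 normalized counts in WT and 63.9, 57.8 and 70.5 in those labelled GαqKO. All 3 values were higher, with a log2 fold change of 1.92 (SE 0.25, adjusted p = 1.48e-05 from limma). Notum, an enzyme that strips the lipid from WNTs and is itself a target, had 3.1, 1.0 and 5.1 normalized counts in WT and 192, 188 and 189 in those labelled GαqKO, with a log2 fold change of 5.70 (SE 0.36, adjusted p = 7.68e-09 from limma), although 80.9% of its exon length is shared with other gene spans. Ccnd1, the gene of cyclin D1, had 1834 ± 37.0 normalized counts in WT and 4639 ± 166 in those labelled GαqKO (SD, n = 3 each), and its log2 fold change was 1.34. For Ccnd1, 48.4% of the exon length is shared with exons of the gene LTO1. Myc and Ccn5 rose by less than 1, with log2 fold changes of 0.21 and 0.66 (adjusted p = 0.0015 and 0.000855 from limma). Among the nuclear factors, Lef1 had 55.3, 50.5 and 57.0 in WT and 19.7, 22.0 and 14.1 in those labelled GαqKO, while Tcf7 had 253, 292 and 282 in WT and 73.2, 65.9 and 83.6 in the others. Both of these factors fell, with log2 fold changes of -1.52 and -1.88 (adjusted p = 9.59e-05 and 1.87e-08 from limma). Ccn4, a matricellular target of WNT signals, had 5323, 5521 and 5253 normalized counts in WT and 444, 438 and 395 in those labelled GαqKO, with a log2 fold change of -3.65 (SE 0.054, adjusted p = 7.03e-15 from limma). Apcdd1, a membrane inhibitor and target, fell from 429.9 ± 51.5 to 38.2 ± 8.03 normalized counts (SD, n = 3 each). Nkd1, Nkd2, Sp5, Tnfrsf19 and Lgr5 were under the filter.

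Of the 12 tested genes of intracellular signal transduction, Axin2 and Apc2 were past the fold threshold. Ctnnb1, the gene of β-catenin, had 1011, 991 and 1031 normalized counts in WT and 1107, 1035 and 1135 in those labelled GαqKO, with a 95% interval of the log2 fold change from -0.004 to 0.23 (adjusted p = 0.0823 from limma, and 0.04 without GαqKO replicate 2). Gsk3b, a kinase of the destruction complex, had a log2 fold change of -0.76 (adjusted p = 1.96e-08 from limma). Apc2, a paralog of the scaffold Apc, had 189.7 ± 30.5 normalized counts in WT and 12.0 ± 2.88 in those labelled GαqKO (SD, n = 3 each) and a log2 fold change of -3.88 (adjusted p = 3.1e-09 from limma). Of the nuclear factors, Tcf7l1 fell and Tcf7l2 rose, with log2 fold changes of -0.72 and 0.37 (adjusted p = 4.34e-06 and 8.68e-05 from limma).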

How the data were processed

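RNA of WT and GαqKO MEFs was sequenced after poly-A selection by paired-end reads. The authors used Rbowtie2 for alignment to GRCm39, featureCounts of Rsubread for counting on GENCODE release 32, and DESeq2. The deposited table holds normalized counts, a signal made by dividing gene counts by 1 size factor per library. Tool versions, the strand setting and any filter are not given in the sources used here. Symbols, coordinates and lengths came from GENCODE release 39 (GRCm39), which matched 56310 of 56953 identifiers (98.9%). Values were tested with limma 3.58.1 (R 4.3.3, trended prior) on log2(normalized count + 1) wherever 3 or more libraries reached 10 normalized counts. With a library left out, the filter asked for as many libraries as the smaller group held. Thresholds were an adjusted p under 0.05 and, for the fold, a log2 fold change of 1 in size.

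In 5 libraries 100.0% of nonzero values were whole multiples of 1 step (within 0.1), and edgeR 4.0.16 and DESeq2 1.42.0 were run on those reads. Reads of GαqKO replicate 3 were not used, so both count tests lack that library. Between the other libraries of a group, chi-square per gene ran from 2.44 to 5.50, so none of these was counted as a repeat of another. GαqKO replicate 3 was not compared in this way. Ratios of group totals with 1 to 3 counts have exact binomial intervals on rounded values. The scripts were tested on simulated data. Members with all 6 values are those past both thresholds or the most abundant of their class (for Wif1, the sole one), and pathway genes are named where past both thresholds, plus Ctnnb1, Axin2, Lef1, Tcf7 and Frzb. Other pathway and marker genes were named, and Wnt5b and Fzd7 given in full, after their values were seen. The members and lists were chosen with earlier results of these data known. The alternatives were other scalings, filters and pseudocounts (0.5 and 5), an untrended prior, a replicate block, the count tests and each library left out in turn. Python 3.11.15 was used with numpy 2.4.6, pandas 2.3.3, scipy 1.17.1 and matplotlib 3.10.9.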

Additional observations from a re-analysis of the deposited data

How the results depend on the processing

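Over 16 alternatives and the 72 tested members and pathway genes, no log2 fold change turned its sign. Of these fold changes, 1101 kept their side of an adjusted p of 0.05, 27 lost the call (8 of Wnt5b, 7 of Lrp6, 7 of Apc, 2 of Axin1, and 1 each of Fzd5, Gsk3a and Wnt10a) and 7 gained it (3 of Dvl2, and 1 each of Bcl9, Btrc, Ctnnb1 and Prickle2). When every library had to reach 10 normalized counts, 13 members were left, of which 8 were higher and 5 lower, and 2 were higher and 3 lower past the fold threshold, against 10, 14, 4 and 12. Over all genes the same filter gave 831 higher and 765 lower of 12054 past the fold threshold, against 1432 and 1486 of 14096. Lrp5 sits at the fold threshold, so 11 members were lower past it with TMM scaling, the pseudocount of 5, edgeR and DESeq2, and without WT replicate 1 or GαqKO replicate 3. Without the filter, 15 were lower, 14 of them past the fold threshold, against 19.0% and 1825 of the 26091 genes then tested. Leaving out each library in turn gave 9 to 10 members higher and 13 to 14 lower, with 4 to 5 and 11 to 12 past the fold threshold. Over all genes, these fits called 28.7% to 30.9% higher and 30.9% to 32.3% lower, with 1426 to 1545 and 1492 to 1603 genes past the fold threshold. DESeq2 called 7 higher and 13 lower. The replicate numbers are not stated to pair the libraries, and the deviations of same-numbered libraries correlated at -0.15 to -0.05. With the replicate block 10 members were higher and 13 lower, against 30.7% and 32.9% of all genes. Past the fold threshold they were 4 and 12, against 1421 and 1478 of 14096, and no library correlated best with its own number. Merged exon lengths were tried after the data had been seen, and with them the share of Fzd7 among Frizzleds in the libraries labelled GαqKO was 24.6% instead of 38.8%, and that of Wnt10b among ligands stayed at 87.6%. Levels under about 10 normalized counts limit what can be said of 19 members.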

Other observations

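Several WNT ligand genes lie side by side in the genome, and neighbours did not share a direction in every case. Wnt6 and Wnt10a, 5.7 kb apart on chromosome 1 and read in the same direction, were both higher in the libraries labelled GαqKO, with log2 fold changes of 2.27 and 0.91 (adjusted p = 1.15e-05 and 0.00416 from limma). Wnt10b and Wnt1, whose spans overlap by 2.3 kb on opposite strands of chromosome 15, went opposite ways, with 2.25 and -1.57 (adjusted p = 4.71e-11 and 0.000757 from limma). Of Wnt9a and Wnt3a, 16.0 kb apart on chromosome 11, Wnt9a had a log2 fold change of -3.42 (adjusted p = 7.16e-08 from limma) and Wnt3a had at most 2.9 normalized counts. Wnt9b and Wnt3, 24.3 kb apart on the same chromosome, had at most 1.9 normalized counts in any library. These pairs were chosen after their values were seen, and no test of the pairing was made.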
